A study of Mus musculus with 16 samples.

Results

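The transcripts of 39 mouse genes of antioxidant defence were followed in the left ventricle: the regulator NRF2 (gene Nfe2l2), its inhibitor KEAP1, classical NRF2 targets, and the enzymes that remove superoxide, peroxides and electrophiles. The members were chosen as a list of gene symbols, matched to the Ensembl IDs of the count table. All 39 were found among 57186 gene IDs. After the filter on low counts 38 of them were tested, among 15206 genes in all. The transporter gene Slc7a11 was the member left out.

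Bulk RNA sequencing was done on 16 left ventricles. In the cKO TAC group, mice with a Tfeb knockout restricted to cardiomyocytes had transverse aortic constriction, which narrows the aorta and makes the ventricle pump against a high pressure. In the cKO sham group, knockout mice had sham surgery. The WT TAC and WT sham groups are the control mice (WT in the labels) after the same operations. Each group has 4 biological replicates, per the series' design text, and the strain is given as C57/BL6N for all. Age, sex, the time after surgery, the Cre line and the control mice's exact genotype are not given in the sources used here. Tfeb, the targeted gene, had 14.7, 13.8, 13.0 and 9.37 CPM in cKO TAC against 40.0, 34.6, 20.6 and 21.1 CPM in WT TAC, and 10.0, 9.12, 9.68 and 13.0 CPM in cKO sham against 30.9, 37.4, 40.1 and 37.6 CPM in WT sham. The cKO libraries lay below every WT library of the same surgery, and some Tfeb counts remained in each. CPM is the count of a gene scaled to a common library size, after correction for composition by edgeR's TMM factors. The libraries hold 12946878 to 16347388 counts.

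NRF2 is a transcription factor that KEAP1 holds in the cytoplasm and marks for degradation. When oxidants or electrophiles modify KEAP1, NRF2 enters the nucleus, pairs with a small MAF protein and binds antioxidant response elements (ARE). The genes it drives make glutathione, reduce thioredoxin and quinones, and supply NADPH, while superoxide dismutases, catalase, peroxiredoxins and glutathione peroxidases remove the oxidants themselves. In cardiomyocytes much of the superoxide and peroxide comes from mitochondria, where a separate set of these enzymes works.

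After TAC many of the enzymes that remove peroxides, superoxide and electrophiles were lower. Nqo1, Gclc, Gclm, Srxn1 and Txnrd1, textbook NRF2 targets, did not pass the test. These 5 do not stand for NRF2 targets as a class, and the lowered enzymes are not a set apart from NRF2 targets. Of 10 members with an ARE core sequence near their start, 2 (Prdx1 and Sod1) were lower in cKO TAC, 1 (Pgd) was higher and 7 did not pass. Of 30 further NRF2 regulators and targets tested, 4 were higher (13.3%) and 5 lower (16.7%) in cKO TAC. In WT TAC 3 of the 30 were higher (10%) and 4 lower (13.3%). An adjusted p under 0.05 from edgeR's quasi-likelihood F-test, adjusted by Benjamini-Hochberg over all 15206 genes, was the threshold throughout. Between cKO TAC and cKO sham, 14 of 38 tested members (36.8%) were lower, against 12.4% of all tested genes, and 1 (Pgd) was higher, against 14.2% of all tested genes. Between WT TAC and WT sham, 5 of 38 (13.2%) were lower, against 6.14% of all tested genes, and 1 (Prdx4) was higher, against 9.7%. With atrial transcripts as a covariate the counts of lower members were 7 of 38 in cKO and 7 of 38 in WT. Of all 15206 tested genes 1142 were then lower in cKO and 1099 in WT. The summed level of 8 atrial markers, Nppa among them, was itself higher in every cKO TAC library (1025 to 2017 CPM) than in every cKO sham library (342 to 765 CPM). In cKO the covariate and the surgery therefore cannot be told apart, and these counts do not compare the genotypes on equal terms. The 5 members lower in WT TAC (Gstm1, Gstm2, Gstp1, Sod2 and Txnrd2) were all among the 14 lower in cKO TAC, which is 100% of the WT list and 35.7% of the cKO list. The median log2 fold change over the tested members was -0.16 in cKO and -0.16 in WT, where the medians over all tested genes were 0.00 and -0.01. Counted by libraries that do not overlap, 15 members (39.5%) were lower and 2 (5.26%) higher in cKO TAC, against 13.8% and 15.5% of all tested genes, and 12 (31.6%) were lower and 1 (2.63%) higher in WT TAC, against 8.44% and 11%. The unadjusted p was under 0.05 for 20 members in cKO (52.6%, against 38.3% of all genes) and for 18 in WT (47.4%, against 31.3%). In bulk tissue fewer cells of a type and less RNA per cell cannot be told apart. No member's TAC response differed between genotypes past the threshold.

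**Figure D1:**
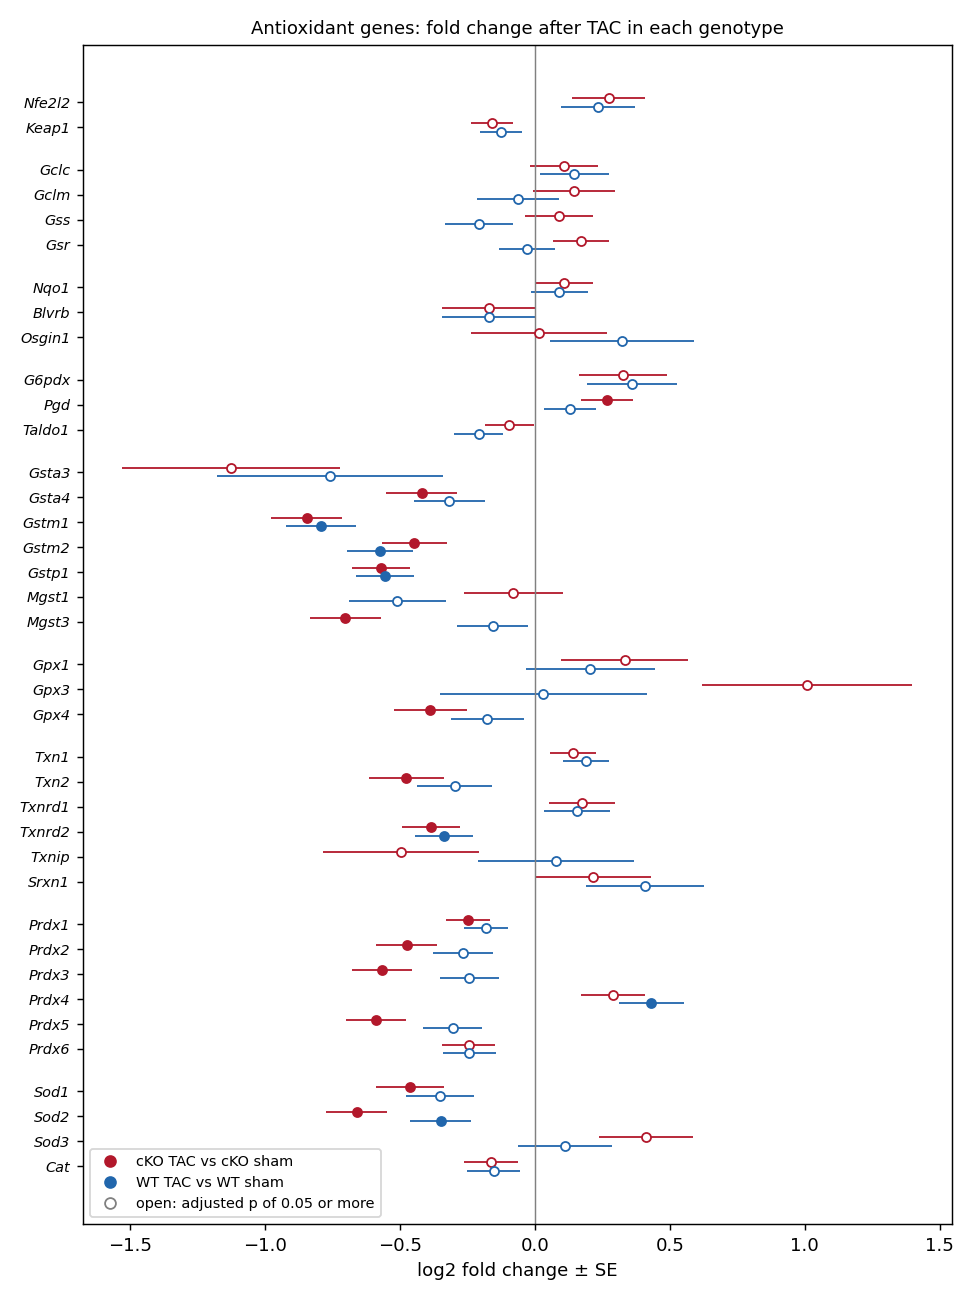
The plot gives, for each of the 38 tested members down the page and grouped by role, the log2 fold change after TAC with its standard error (SE) on the horizontal axis, in cKO mice (red, above) and WT mice (blue, below). Filled points passed the threshold. The filled points lie left of 0 except for Pgd in cKO and Prdx4 in WT.

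To compare one gene with another, levels were divided by the length of the gene's merged exons. Per kilobase of exon the peroxidase gene Gpx4 stood highest, at 255 CPM on average over the 16 libraries, followed by Gpx3 at 219, Mgst3 at 154, Txnip at 153, Prdx5 at 153 and Prdx3 at 148. The regulators stood lower, at 20.5 CPM per kilobase for Nfe2l2 and 13.9 for Keap1. At the low end were Gss at 2.38, Osgin1 at 1.59, Gsta3 at 1.26 and Slc7a11 at 0.0179 CPM per kilobase. In this order each gene's range over libraries overlapped that of its neighbour, except between Gsta3 and Slc7a11. Gpx1, the cytosolic glutathione peroxidase, was listed at only 6.43 CPM per kilobase. Whether reads of Gpx1 were lost in counting was not tested, so this value need not show how much of the transcript was present.

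**Figure D2:**
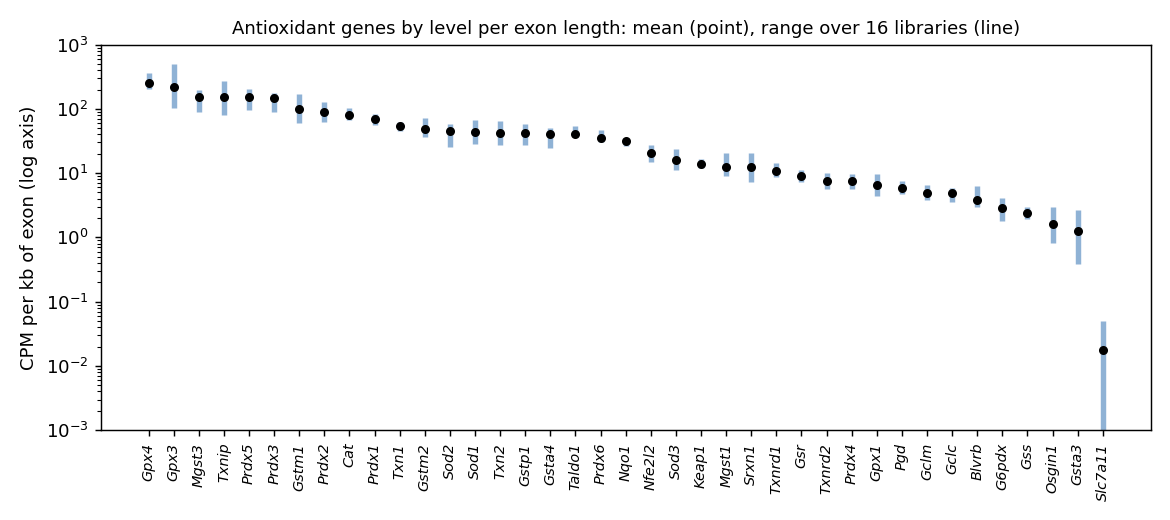
The plot shows each member along the horizontal axis, ordered by its mean level in CPM per kilobase of exon on a log axis (point), with the range over the 16 libraries (line). Gpx4 is highest at 255 and Slc7a11 lowest at 0.0179, with its line running off the axis because some libraries hold no count of it.

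Promoter sequence was examined because NRF2 acts through the ARE and TFEB through E-box-type elements. RefSeq windows of the build GRCm38.p6, from 250 bases before to 50 bases after each gene's start, were available for 34 of the 39 members. The ARE core TGACNNNGC, searched on both strands, was found in 10 of the 34 (29.4%), against 14.0% of the 27025 genes with a window. The 10 were G6pdx, Gclm, Gsta3, Mgst1, Nfe2l2, Pgd, Prdx1, Sod1, Srxn1 and Txnrd1. The matches of Pgd (3 to 12 bases) and Srxn1 (28 to 37 bases) lie past the annotated start, within the transcript. They are not upstream promoter sequence. Between cKO TAC and cKO sham 2 of the 10 were lower (Prdx1 and Sod1), 1 was higher (Pgd, with its match past the start) and 7 did not pass. These are 20% lower and 10% higher, against 12.4% and 14.2% of all tested genes. In WT none of the 10 passed. The E-box CACGTG, which reads the same on both strands, was found in 1 of the 34 (2.94%), Prdx4, against 8.09% of genes. A match describes letters in a window and does not show binding, and a window without a match says nothing about sites elsewhere.

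Stretches are printed for the 2 ARE-holding members that were lower after TAC (Prdx1 at chr4:116685441-116685499 and Sod1 at chr16:90220681-90220739), for 2 textbook targets that did not pass (Gclm at chr3:122245398-122245456 and Txnrd1 at chr10:82859089-82859147), all on the plus strand, and for Prdx4, the member with the E-box (chrX:155338482-155338537, minus strand). Capitals mark the motif. In the first 4 the ARE core lies on the opposite strand, so the capitals are its reverse complement.
Prdx1: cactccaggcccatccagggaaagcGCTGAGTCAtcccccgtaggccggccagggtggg
Sod1: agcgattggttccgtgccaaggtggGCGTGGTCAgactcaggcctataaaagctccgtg
Gclm: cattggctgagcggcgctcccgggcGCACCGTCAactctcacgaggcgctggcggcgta
Txnrd1: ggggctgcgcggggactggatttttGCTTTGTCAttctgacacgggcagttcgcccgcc
Prdx4: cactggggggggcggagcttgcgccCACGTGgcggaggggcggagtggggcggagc

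Neither regulator passed the test. Nfe2l2 (ENSMUSG00000015839) had 106, 85.8, 75.8 and 80.5 CPM in cKO TAC against 79.3, 70.3, 60.7 and 77.6 CPM in cKO sham, and 76.9, 69.5, 90.6 and 93.7 CPM in WT TAC against 63.7, 85.3, 56.9 and 75.4 CPM in WT sham. The TAC libraries tended to the upper part of the range, but the groups overlapped in both genotypes. The log2 fold change after TAC was 0.27 (SE 0.14) in cKO, with an adjusted p of 0.148, and 0.23 (SE 0.14) in WT, with an adjusted p of 0.255. Keap1, the sensor that keeps NRF2 inactive, had 56.8, 62.0, 57.9 and 63.9 CPM in cKO TAC against 65.4, 65.0, 68.7 and 69.4 CPM in cKO sham, and 64.2, 70.2, 60.7 and 62.3 CPM in WT TAC against 79.1, 67.8, 66.3 and 67.2 CPM in WT sham. Every cKO TAC library lay below every cKO sham library, though by a small margin, and the WT groups overlapped. The difference missed the threshold in cKO (log2 fold change -0.16, SE 0.08, adjusted p = 0.145) and in WT (-0.12, SE 0.08, adjusted p = 0.297). Of the exonic bases of Keap1, 10.9% overlap Gm16754 on the opposite strand. These are transcript levels, and the NRF2 protein, on which KEAP1 acts, was not measured.

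Glutathione is made from cystine, which SLC7A11 imports, by glutamate-cysteine ligase (catalytic subunit Gclc, modifier Gclm) and glutathione synthetase (Gss), and it is regenerated by glutathione reductase (Gsr). Slc7a11 was close to the detection limit, with 0.505, 0.442, 0.375 and 0 CPM in cKO TAC, 0.261, 0.259, 0.372 and 0.692 in cKO sham, 0.0664, 0.459, 0 and 0.117 in WT TAC and 0, 0.149, 0.296 and 0 in WT sham, and it was not tested. None of the other 4 passed in any of the 6 comparisons. Their log2 fold changes after TAC ran from 0.09 (Gss) to 0.17 (Gsr) in cKO and from -0.21 (Gss) to 0.15 (Gclc) in WT. The widest interval among them in cKO, that of Gclm, ran from -0.17 to 0.47, so a rise or fall beyond that range is outside its 95% interval.

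Nqo1, the quinone reductase most often read as a sign of NRF2 activity, had 46.0, 42.8, 54.6 and 53.0 CPM in cKO TAC against 52.6, 41.9, 42.9 and 44.6 CPM in cKO sham, and 51.7, 52.6, 51.2 and 47.9 CPM in WT TAC against 52.3, 53.8, 43.8 and 40.9 CPM in WT sham. All 4 groups overlapped. The log2 fold change was 0.11 (SE 0.10) in cKO and 0.09 (SE 0.10) in WT, with adjusted p-values of 0.478 and 0.589 and 95% intervals of -0.11 to 0.33 and -0.13 to 0.31. Txnrd1, the cytosolic thioredoxin reductase, gave 0.17 (SE 0.12) in cKO and 0.16 (SE 0.12) in WT. Srxn1, which repairs overoxidized peroxiredoxins, gave 0.22 (SE 0.22) and 0.41 (SE 0.22), and Osgin1, a stress-induced growth inhibitor, gave 0.02 (SE 0.25) and 0.32 (SE 0.27). None of these passed, nor did Blvrb, which reduces biliverdin (-0.17 (SE 0.17) in cKO and -0.17 (SE 0.17) in WT).

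The pentose phosphate pathway supplies NADPH to both the glutathione and the thioredoxin systems. Pgd, its 6-phosphogluconate dehydrogenase, had 47.9, 42.1, 43.0 and 45.2 CPM in cKO TAC against 38.7, 38.4, 35.1 and 35.8 CPM in cKO sham, and 39.7, 40.0, 31.6 and 32.2 CPM in WT TAC against 37.5, 31.1, 30.7 and 31.8 CPM in WT sham. The cKO TAC libraries were higher than every cKO sham library and every WT library, while the WT groups overlapped. Pgd was 1.20-fold higher in cKO TAC than in cKO sham (log2 fold change 0.27, SE 0.10, adjusted p = 0.0447), a call that was lost without any 1 of 11 libraries (all 4 cKO TAC, all 4 cKO sham, WT sham replicate 4, and WT TAC replicates 2 and 4), with adjusted p-values up to 0.147. G6pdx, the first enzyme of the pathway, gave 0.33 (SE 0.16) in cKO and 0.36 (SE 0.17) in WT, and Taldo1, a transaldolase, gave -0.09 (SE 0.09) and -0.21 (SE 0.09), neither past the threshold.

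**Figure D3:**
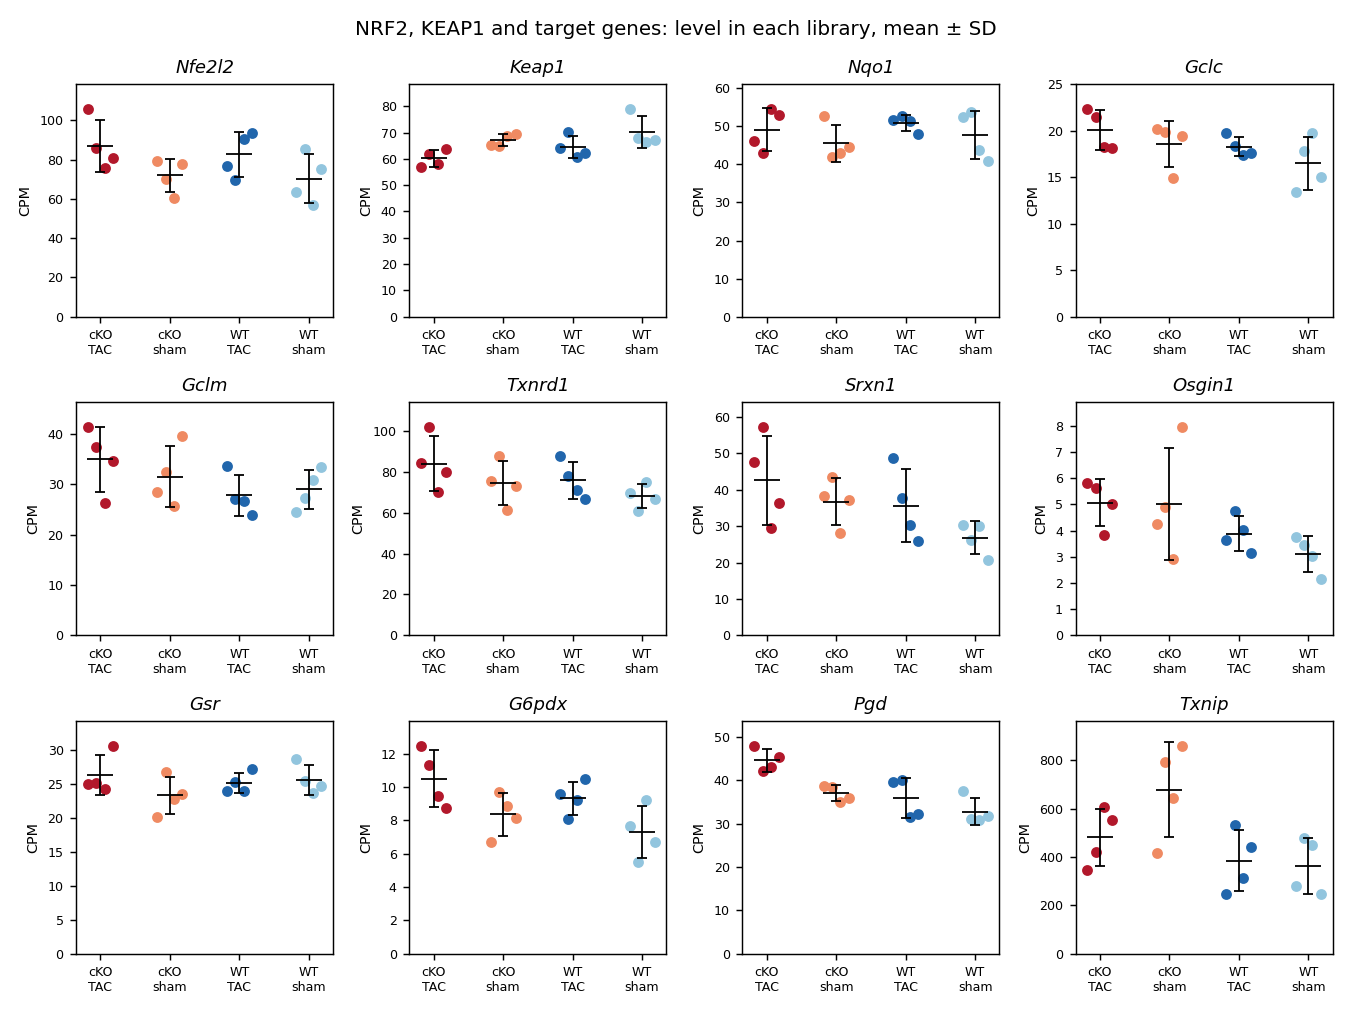
The plot shows CPM in each library for 12 members, with the 4 groups along the horizontal axis (cKO TAC, cKO sham, WT TAC, WT sham), points for libraries and bars for mean ± SD (n = 4). The groups overlap in most panels. Pgd in cKO TAC (42.1 to 47.9 CPM) lies above the other 3 groups.

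Glutathione transferases join glutathione to electrophiles. Of 7 tested members, 5 were lower in cKO TAC (71.4%, against 12.4% of all tested genes) and 3 in WT TAC (42.9%, against 6.14%). All 7 had negative log2 fold changes in both genotypes, where 50.4% of all tested genes in cKO and 48.2% in WT had positive ones. Gstm1 (ENSMUSG00000058135), of the mu class, had 103, 93.2, 108 and 92.6 CPM in cKO TAC against 194, 161, 178 and 179 CPM in cKO sham, and 88.9, 116, 121 and 139 CPM in WT TAC against 255, 178, 176 and 196 CPM in WT sham. No TAC library reached the level of any sham library in either genotype. Gstm1 fell to 0.557 of the sham level in cKO (log2 fold change -0.84, SE 0.13, adjusted p = 0.000221) and to 0.577 in WT (-0.79, SE 0.13, adjusted p = 0.000635). Gstp1, of the pi class, had 53.5, 49.1, 51.6 and 43.0 CPM in cKO TAC against 74.0, 66.7, 79.3 and 72.7 CPM in cKO sham, and 54.9, 46.8, 56.7 and 61.1 CPM in WT TAC against 91.6, 73.4, 68.7 and 88.7 CPM in WT sham. Again the surgeries did not overlap. Its log2 fold changes were -0.57, SE 0.11, adjusted p = 0.000973 in cKO and -0.55, SE 0.11, adjusted p = 0.00214 in WT. Gstm1 and Gstp1 kept their calls in both genotypes under each of the 27 alternatives tried, and so did Gstm2 in WT.

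Gstm2, a second mu-class transferase, had 82.8, 65.8, 73.6 and 60.6 CPM in cKO TAC against 90.6, 94.5, 109 and 91.2 CPM in cKO sham, and 60.7, 69.6, 60.9 and 64.8 CPM in WT TAC against 122, 91.8, 80.2 and 86.3 CPM in WT sham. Its TAC and sham libraries did not overlap in either genotype (log2 fold change -0.45, SE 0.12, adjusted p = 0.0116 in cKO and -0.57, SE 0.12, adjusted p = 0.00440 in WT). The mu-class genes and Gstp1 have near-identical copies, and how the authors counted reads that map to several places is not given in the sources used here, so reads may have been shared among these copies. Gsta4, which handles products of lipid peroxidation, had 56.8, 35.9, 40.3 and 31.2 CPM in cKO TAC against 53.2, 53.6, 59.7 and 53.1 CPM in cKO sham, and 50.7, 55.5, 47.1 and 45.0 CPM in WT TAC against 60.3, 59.2, 64.8 and 62.4 CPM in WT sham. Replicate 1 of cKO TAC lay within the cKO sham range and the other 3 below it. Gsta4 was lower in cKO TAC (log2 fold change -0.42, SE 0.13, adjusted p = 0.0255) but lost that call without cKO sham replicate 3 or cKO TAC replicate 2 or 4, with adjusted p-values up to 0.0814. In WT the groups did not overlap, and the difference missed the threshold (-0.32, SE 0.13, adjusted p = 0.108). Gsta3 and Mgst1 gave -1.12 (SE 0.40) and -0.08 (SE 0.18) in cKO, with adjusted p-values of 0.0501 and 0.796. In WT neither gene's surgeries overlapped, with TAC lower. Gsta3 was at 3.37 ± 0.897 CPM in WT TAC and 5.73 ± 1.14 CPM in WT sham (SD, n = 4), with -0.76, SE 0.42, adjusted p = 0.233. Mgst1 was at 23.5 ± 1.17 CPM in WT TAC and 33.4 ± 6.49 CPM in WT sham (SD, n = 4), with -0.51, SE 0.18, adjusted p = 0.0644. The DESeq2 Wald test called Mgst1 in WT (adjusted p = 0.0384), as did the fit on the compared groups alone (0.0286) and that without cKO TAC replicate 1 (0.0275). In cKO TAC replicate 1, Gsta3 stood at 9.21 CPM where the other 3 lay between 1.69 and 2.65. Without that library Gsta3 was -1.94 with an adjusted p of 0.000282 in cKO, and -0.76 with an adjusted p of 0.0451 in WT.

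Mgst3 (ENSMUSG00000026688), a membrane-bound transferase and peroxidase, had 97.3, 115, 140.0 and 101 CPM in cKO TAC against 178, 147, 219.7 and 192 CPM in cKO sham, and 158, 190.4, 201 and 165 CPM in WT TAC against 217, 198, 169.9 and 213 CPM in WT sham. The 4 cKO TAC libraries were the lowest 4 of the 16, and the other 3 groups overlapped. Mgst3 fell to 0.615 of the sham level in cKO (log2 fold change -0.70, SE 0.13, adjusted p = 0.00102), a call that held under each of the alternatives tried, and did not pass in WT (-0.16, SE 0.13, adjusted p = 0.445). The difference between these responses was -0.55 (SE 0.19) on the log2 scale, with a 95% interval of -0.94 to -0.15 and an adjusted p of 0.946, so it was not called.

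Superoxide dismutases turn superoxide into hydrogen peroxide, SOD1 in the cytosol, SOD2 in the mitochondrial matrix and SOD3 outside the cell. Sod2 (ENSMUSG00000006818) had 257, 291, 396 and 307 CPM in cKO TAC against 529, 455, 502 and 491 CPM in cKO sham, and 405, 479, 494 and 412 CPM in WT TAC against 553, 591, 555 and 581 CPM in WT sham. Every TAC library lay below every sham library of its genotype, and the cKO TAC libraries were the lowest of all. Sod2 fell to 0.633 of the sham level in cKO (log2 fold change -0.66, SE 0.11, adjusted p = 0.000521) and to 0.785 in WT (-0.35, SE 0.11, adjusted p = 0.0434). The WT call was lost without any 1 of 10 libraries (all 4 WT sham, WT TAC replicates 1, 2 and 4, cKO sham replicates 1 and 4, and cKO TAC replicate 4), with adjusted p-values up to 0.132. The cKO call held under each alternative. Sod1 had 114, 123, 155 and 135 CPM in cKO TAC against 163, 181, 201 and 180.3 CPM in cKO sham, and 154, 171, 165 and 160.1 CPM in WT TAC against 270.0, 206, 189 and 164 CPM in WT sham. The cKO groups did not overlap (log2 fold change -0.46, SE 0.13, adjusted p = 0.0122), and the WT groups did (-0.35, SE 0.13, adjusted p = 0.0662). Sod3 gave 0.41 (SE 0.17) in cKO and 0.11 (SE 0.17) in WT, and catalase (Cat), which splits hydrogen peroxide in peroxisomes, gave -0.16 (SE 0.10) and -0.15 (SE 0.10). Neither passed.

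Peroxiredoxins reduce peroxides with electrons from thioredoxin. Of the 6 members, 4 were lower in cKO TAC (66.7%, against 12.4% of all tested genes) and none was lower in WT TAC (against 6.14%). Prdx3, in the mitochondrial matrix, had 134, 159, 199.9 and 154 CPM in cKO TAC against 251, 215, 257 and 234 CPM in cKO sham, and 184, 225, 238 and 217 CPM in WT TAC against 242, 265, 253 and 263 CPM in WT sham. Prdx5, found in mitochondria among other sites, had 206, 224, 297 and 233 CPM in cKO TAC against 353, 340.0, 394 and 357 CPM in cKO sham, and 300.5, 336, 339.8 and 286 CPM in WT TAC against 439.5, 403, 355 and 361 CPM in WT sham. For both genes the TAC libraries lay below the sham libraries in each genotype. The log2 fold changes of Prdx3 were -0.57, SE 0.11, adjusted p = 0.00131 in cKO and -0.24, SE 0.11, adjusted p = 0.142 in WT. Those of Prdx5 were -0.59, SE 0.11, adjusted p = 0.000977 in cKO and -0.30, SE 0.11, adjusted p = 0.0674 in WT. Of the exonic bases of Prdx5, 19.1% overlap Trmt112 on the opposite strand in the GENCODE M21 annotation, and strandedness is not given in the sources used here, so its reads may hold some of that gene's.

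Prdx2, abundant in red cells as well as in heart, had 193, 201, 254 and 221 CPM in cKO TAC against 313, 268, 333 and 293 CPM in cKO sham, and 248, 273, 274 and 256 CPM in WT TAC against 389, 314, 283 and 279 CPM in WT sham. The surgeries did not overlap in either genotype, and only the cKO difference passed (log2 fold change -0.47, SE 0.11, adjusted p = 0.00508, against -0.27, SE 0.11, adjusted p = 0.113 in WT). The summed level of 8 erythrocyte markers was 181 to 472 CPM in cKO TAC and 156 to 477 CPM in cKO sham, and its part in the Prdx2 result was not tested. Prdx1, the main cytosolic form, had 181, 181, 203 and 172 CPM in cKO TAC against 218, 217, 233 and 206 CPM in cKO sham, and 194, 212, 219 and 204 CPM in WT TAC against 257, 238, 219.6 and 224 CPM in WT sham. The cKO difference was small (log2 fold change -0.25, SE 0.08, adjusted p = 0.0311) and was lost without cKO sham replicate 1 or 3 or cKO TAC replicate 1, 2 or 4, with adjusted p-values up to 0.0894. In WT the surgeries did not overlap either, and the difference did not pass (-0.18, SE 0.08, adjusted p = 0.135).

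Prdx4 and Prdx6 completed the peroxiredoxins. Prdx4, which works in the endoplasmic reticulum, ran the other way, with 18.6, 18.4, 17.7 and 16.3 CPM in cKO TAC against 13.1, 14.9, 17.6 and 12.5 CPM in cKO sham, and 20.7, 18.5, 15.8 and 16.4 CPM in WT TAC against 14.0, 14.3, 11.7 and 12.8 CPM in WT sham. Only the WT libraries were fully apart. Prdx4 was 1.35-fold higher in WT TAC (log2 fold change 0.43, SE 0.12, adjusted p = 0.0217) and missed the threshold in cKO (0.29, SE 0.12, adjusted p = 0.0806). The WT call was lost without WT sham replicate 3 or 4 or WT TAC replicate 1 or 2, with adjusted p-values up to 0.0983. Prdx6 gave -0.24, SE 0.10, adjusted p = 0.0724 in cKO and -0.24, SE 0.10, adjusted p = 0.0992 in WT.

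Thioredoxin and its reductase exist in a cytosolic and a mitochondrial form that work in parallel. In cKO both mitochondrial genes passed and neither cytosolic one did, though the difference between forms was not tested. Txn2, the mitochondrial thioredoxin, had 114, 140.3, 160.2 and 132 CPM in cKO TAC against 185, 168, 233 and 174 CPM in cKO sham, and 174, 186, 171 and 153 CPM in WT TAC against 276, 189, 180.0 and 194 CPM in WT sham. Txnrd2, the mitochondrial reductase, had 24.9, 25.8, 34.8 and 29.4 CPM in cKO TAC against 36.3, 36.2, 42.0 and 35.6 CPM in cKO sham, and 29.0, 29.6, 33.2 and 30.2 CPM in WT TAC against 44.7, 38.3, 35.8 and 35.3 CPM in WT sham. In cKO every TAC library was below every sham library for both genes, and in WT this held for Txnrd2 only. Txn2 was lower in cKO (log2 fold change -0.48, SE 0.14, adjusted p = 0.0169) and did not pass in WT (-0.30, SE 0.14, adjusted p = 0.150). Txnrd2 was lower in cKO (-0.39, SE 0.11, adjusted p = 0.0139) and in WT (-0.34, SE 0.11, adjusted p = 0.0420). Both cKO calls were lost without cKO sham replicate 3 or cKO TAC replicate 1, with adjusted p-values up to 0.0744 for Txn2 and 0.0518 for Txnrd2. The WT call of Txnrd2 was lost without any 1 of 8 libraries (WT sham replicates 1 and 2, WT TAC replicates 1, 2 and 4, cKO sham replicates 1 and 4, and cKO TAC replicate 4), with adjusted p-values up to 0.116. The cytosolic Txn1 gave 0.14 (SE 0.08) in cKO and 0.19 (SE 0.08) in WT, neither past the threshold, as for Txnrd1 above.

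Glutathione peroxidases reduce peroxides with glutathione, GPX1 in the cytosol, GPX3 in plasma and GPX4 on lipid peroxides in membranes. Gpx4 had 352, 374, 437 and 365 CPM in cKO TAC against 464, 491, 586 and 459 CPM in cKO sham, and 440.0, 435, 408 and 369 CPM in WT TAC against 631, 443, 397 and 394 CPM in WT sham. The cKO groups were apart and the WT groups overlapped. Gpx4 was lower in cKO TAC (log2 fold change -0.39, SE 0.13, adjusted p = 0.0407), a call lost without WT TAC replicate 3, any 1 of cKO sham replicates 1, 2 and 3, or any 1 of cKO TAC replicates 1, 2 and 4, with adjusted p-values up to 0.141. In WT it did not pass (-0.18, SE 0.13, adjusted p = 0.399). Gpx3 was listed at 899, 516, 415 and 504 CPM in cKO TAC against 247, 318, 353 and 241 CPM in cKO sham, without overlap, and missed the threshold (1.01, SE 0.39, adjusted p = 0.0709). In WT it had 440.3, 248, 228 and 523 CPM in WT TAC against 317, 245, 659 and 187 CPM in WT sham, with overlap (0.03, SE 0.39, adjusted p = 0.965). Its highest WT value was in WT sham replicate 3, and without that library the cKO result had an adjusted p of 0.0232. Gpx1, at the low level described above, gave 0.33 (SE 0.23) in cKO and 0.21 (SE 0.24) in WT.

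Sod2, Prdx3, Prdx5, Txn2 and Txnrd2 were grouped as mitochondrial after their values were seen, and another choice of members could give other counts. All 5 were lower in cKO TAC relative to cKO sham (median log2 fold change -0.57), against 12.4% of all tested genes. In WT TAC relative to WT sham 2 of 5 were lower (40%, median -0.30), against 6.14% of all tested genes. Among the other 33 tested members, 9 were lower (27.3%) and 1 was higher (3.03%) in cKO TAC (median -0.08). In WT TAC 3 of the 33 were lower (9.09%) and 1 was higher (3.03%, median -0.12). The shares of all tested genes that were higher are 14.2% in cKO TAC and 9.7% in WT TAC. The cKO and WT responses of these 5 were not shown to differ, with interaction values from -0.32 (Prdx3) to -0.05 (Txnrd2) and adjusted p-values of 0.946 or more.

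**Figure D4:**
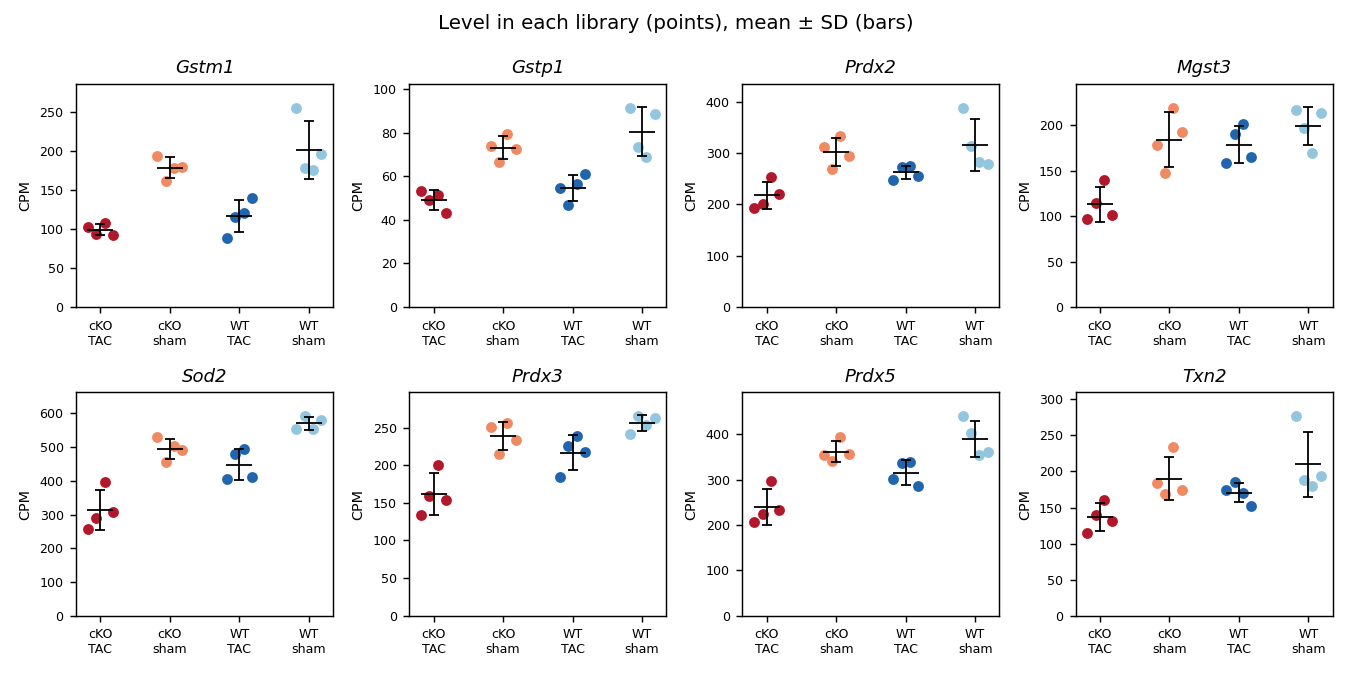
The plot shows CPM in each library for 8 members that were lower in cKO TAC, with the 4 groups along the horizontal axis, points for libraries and bars for mean ± SD (n = 4). In the panels of Sod2, Prdx3, Prdx5 and Mgst3 the cKO TAC group is the lowest, with 1 library above the other 3.

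That upper library was cKO TAC replicate 3. Among the 14 members lower in cKO TAC, it was the highest of its group for 11, while replicate 1 was the lowest for 9 and replicate 4 for 5. In the same library mitochondrially encoded genes took 20.4% of counts, against 16.1% to 16.3% in the other 3 cKO TAC libraries. Their share was 21.9% to 24.1% in cKO sham, 17.1% to 22.6% in WT TAC and 21.1% to 25.8% in WT sham. In cKO TAC replicate 3 the summed level of 12 cardiomyocyte markers was 71198 CPM, the highest of the group, and that of 12 fibroblast markers was 5048 CPM, the lowest. Without this library 14 members were lower and none was higher.

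Markers of other cell types moved with TAC as well. The 12 cardiomyocyte markers summed to 51856 to 71198 CPM in cKO TAC, 74530 to 86923 in cKO sham, 68153 to 78815 in WT TAC and 76247 to 88259 in WT sham. Of these 12 markers 6 (50%) were lower in cKO TAC relative to cKO sham, and 2 (16.7%) in the WT comparison. The 12 fibroblast markers summed to 5048 to 9122 CPM in cKO TAC, 2459 to 3863 in cKO sham, 3555 to 5685 in WT TAC and 2191 to 3193 in WT sham. Of them 9 (75%) were higher and 1 (8.33%) lower in cKO, and 8 (66.7%) were higher in WT. The 12 macrophage and monocyte markers summed to 580 to 804, 325 to 629, 434 to 587 and 240 to 381 CPM in those 4 groups, with 9 (75%) higher in cKO and 8 (66.7%) in WT. Of 10 endothelial markers 3 (30%) were higher in cKO and 2 (20%) in WT. Of 8 smooth muscle and pericyte markers 1 was higher (12.5%, near the share of all tested genes) and 2 were lower (25%) in cKO, and 2 were higher (25%) in WT. None of the 6 tested erythrocyte markers passed. The 6 adipocyte markers summed to less than 1 CPM in every cKO library, and reached 43.2 CPM in WT TAC replicate 4 and 13.7 CPM in WT sham replicate 3. The part of these markers in the members' results was not tested.

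Atrial transcripts differed between libraries. The 8 atrial markers summed to 1025 to 2017 CPM in cKO TAC, 342 to 765 in cKO sham, 241 to 1603 in WT TAC and 154 to 4132 in WT sham, with the highest WT values in WT sham replicate 3 and WT TAC replicate 4. The 8 markers were Sln, Myl7, Myl4, Nppa, Bmp10, Dkk3, Stard10 and Kcnj3. Of the 7 tested, 1 was lower after TAC in each genotype (14.3%, against 12.4% of all tested genes in cKO and 6.14% in WT) and none was higher. Their median log2 fold change after TAC was -1.12 in cKO and -1.30 in WT. The sum of all 8 was nevertheless higher in every cKO TAC library than in every cKO sham library, while the WT groups overlapped. As a covariate this sum therefore cannot be told apart from the surgery in cKO, and calls lost there may have lost part of the TAC difference. In cKO the sum rose while the median marker fell, so it need not measure atrial tissue. Which marker carried the sum was not tested. With these transcripts as a covariate, 7 of the 14 members stayed lower in cKO TAC (Prdx2, Sod2, Prdx5, Prdx3, Mgst3, Gstm1 and Gstp1), and Gpx4, Gsta4, Gstm2, Prdx1, Sod1, Txn2 and Txnrd2 lost their calls. In WT TAC 7 members were lower under the same covariate: the 5 calls remained, and Prdx5 (-0.31, adjusted p = 0.0375) and Prdx6 (-0.23, adjusted p = 0.0473) were added. Over all genes 2499 were then called in cKO, against 4034 without the covariate, and 2742 in WT, against 2409. Without WT sham replicate 3 and WT TAC replicate 4 together, 3 members were lower and none was higher in WT TAC. WT sham replicate 1 stood apart in another way, with the highest level of its group for 21 of 39 members and an erythrocyte marker sum of 1251 CPM. Without it 15 members were lower in cKO TAC and 3 in WT TAC.

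Scaling also bears on the counts. With library totals in place of TMM factors, the median of all genes after TAC moved up by 0.19 on the log2 scale in cKO and by 0.12 in WT. The split of all called genes then went to 4013 higher and 877 lower in cKO, against 2154 and 1880 with TMM, and to 2170 and 432 in WT, against 1475 and 934. Under that scaling the 7 members that kept their calls with the atrial covariate stayed lower in cKO, and 9 were higher (Pgd, G6pdx, Gpx3, Gsr, Nfe2l2, Nqo1, Prdx4, Sod3 and Txn1). Nqo1 was then 0.30 with an adjusted p of 0.0318 and Nfe2l2 0.47 with an adjusted p of 0.0179. Relative to the moved median, both differences were close to those given above.

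Between genotypes few members differed. Under TAC 2 of 38 (5.26%) were lower in cKO than in WT, Mgst3 and Sod2, against 1.18% of all tested genes, and none was higher, against 0.598%. The unadjusted p was under 0.05 for 11 members (28.9%), against 17.4% of all genes. The libraries did not overlap for 2 members lower (5.26%, against 5.11% of all genes) and 3 higher (7.89%, against 4.89%). The DESeq2 Wald test called 4 lower and 1 higher. Mgst3 was at 113 ± 19.3 CPM in cKO TAC and 179 ± 20.4 CPM in WT TAC (SD, n = 4), without overlap (log2 fold change -0.66, SE 0.13, adjusted p = 0.0225). Sod2 was at 313 ± 59.2 CPM in cKO TAC and 448 ± 45.8 CPM in WT TAC (SD, n = 4), also without overlap (-0.52, SE 0.11, adjusted p = 0.0303). Both calls were lost without WT TAC replicate 2 or 3 or cKO TAC replicate 1, 2 or 4, with adjusted p-values of 0.0724 to 0.114 for Mgst3 and 0.0772 to 0.129 for Sod2. Without WT sham replicate 1, or without cKO TAC replicate 3, 4 members were lower. Fitted on the compared groups alone, Sod2 was -0.51 with an adjusted p of 0.0763. Both calls were lost too with atrial transcripts as a covariate, at -0.52 with an adjusted p of 0.0936 for Mgst3 and -0.44 with an adjusted p of 0.119 for Sod2. Prdx3 (-0.42, SE 0.11, adjusted p = 0.0579) and Prdx5 (-0.39, SE 0.11, adjusted p = 0.0699) missed the threshold.

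Under sham surgery no member passed in edgeR, where 0.618% of all tested genes were higher and 0.552% lower in cKO. The unadjusted p was under 0.05 for 3 members (7.89%, against 15% of all genes), namely Mgst1, Osgin1 and Txnip. The libraries were apart for 1 member, Sod2, lower in cKO (3.59% of all genes were so), and for none higher (4% of all genes). Txnip, an inhibitor of thioredoxin that also limits glucose uptake, had 416, 793, 645 and 860.4 CPM in cKO sham against 282, 477, 450.4 and 247 CPM in WT sham. Under TAC it had 345, 420.4, 607 and 551 CPM in cKO TAC against 249, 532, 315 and 441 CPM in WT TAC. The libraries spread widely within every group and the genotypes overlapped. After TAC Txnip gave -0.50, SE 0.29, adjusted p = 0.227 in cKO and 0.08, SE 0.29, adjusted p = 0.888 in WT. Its log2 difference under sham was 0.90 (SE 0.29) with an adjusted p of 0.147, and the DESeq2 Wald test called it, with an adjusted p of 0.0325. Of its exonic bases 19.4% overlap the antisense gene Gm15441. Mgst1, a microsomal transferase, was at 22.9 ± 5.52 CPM in cKO sham and 33.4 ± 6.49 CPM in WT sham (SD, n = 4), with -0.55, SE 0.18, adjusted p = 0.146. Osgin1 gave 0.69, SE 0.26, adjusted p = 0.206.

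Averaged over both surgeries, 4 of 38 members (10.5%) were lower in cKO than in WT, against 4.85% of all tested genes, and 1 (2.63%) was higher, against 4.21%. The lower members were Sod2 (log2 fold change -0.36, SE 0.08, adjusted p = 0.0106), Mgst3 (-0.39, SE 0.09, adjusted p = 0.0164), Prdx3 (-0.26, SE 0.08, adjusted p = 0.0446) and Prdx5 (-0.25, SE 0.08, adjusted p = 0.04999). The higher member was Pgd (0.25, SE 0.07, adjusted p = 0.0307). The unadjusted p was under 0.05 for 17 members (44.7%, against 24.5% of all genes). The calls of Sod2 and Mgst3 held under each alternative. That of Prdx5 was lost without any 1 of 11 libraries (adjusted p-values up to 0.107), that of Prdx3 without any 1 of 12 (up to 0.10), and that of Pgd without any 1 of 10 (up to 0.0791). Libraries that left these 3 calls in place when omitted were WT sham replicate 3, WT TAC replicates 1 and 4, cKO sham replicate 3 and cKO TAC replicate 3 for Prdx5, WT sham replicate 1, WT TAC replicate 1, cKO sham replicate 3 and cKO TAC replicate 3 for Prdx3, and WT sham replicate 1, WT TAC replicates 1 and 2, cKO sham replicates 3 and 4 and cKO TAC replicate 3 for Pgd.

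**Figure D5:**
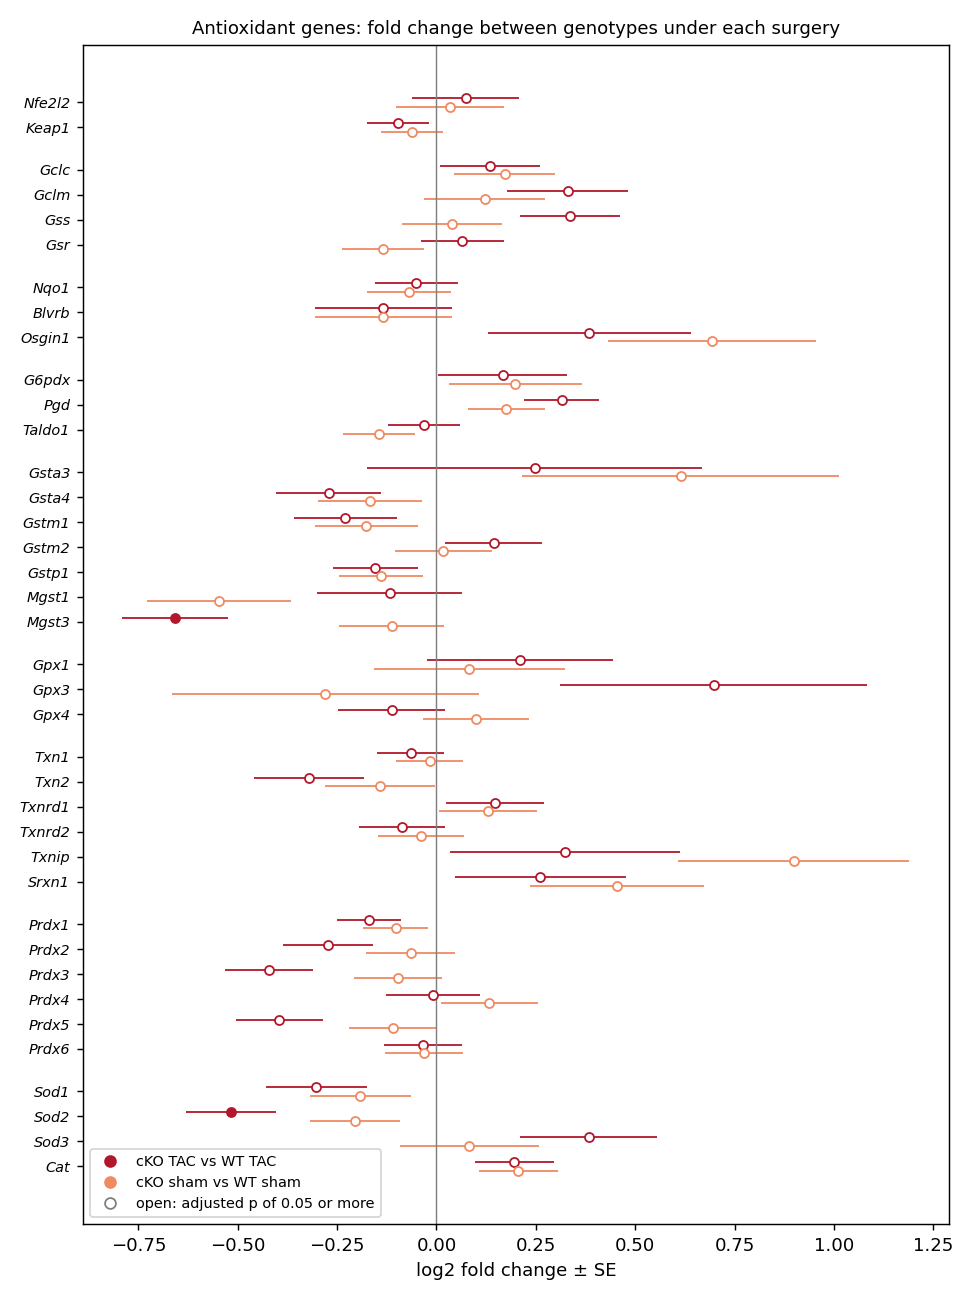
The plot gives, for each of the 38 tested members, the log2 fold change of cKO over WT with its SE on the horizontal axis, under TAC (red, above) and under sham surgery (orange, below). Filled points passed the threshold. The only filled points are Mgst3 (-0.66) and Sod2 (-0.52) under TAC.

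In the test of whether the TAC response differs by genotype, edgeR called no member and no gene at all. The unadjusted p was under 0.05 for 1 of 38 members, Mgst3, and for 715 of 15206 genes (4.7%). The DESeq2 Wald test called 3 genes and no member. The 95% intervals of the members were wide. That of Nqo1 ran from -0.29 to 0.33, that of Sod2 from -0.65 to 0.02 and that of Gpx3 from -0.20 to 2.15.

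Other genes of the pathway were read from lists made for these comparisons. Of 30 tested regulators and further targets of NRF2, 4 were higher (13.3%) and 5 lower (16.7%) in the cKO comparison of surgeries, near the 14.2% and 12.4% of all tested genes. In the WT comparison 3 were higher (10%) and 4 lower (13.3%), against 9.7% and 6.14% of all tested genes. Hmox1, the heme oxygenase, was at 17.5 ± 3.55 CPM in WT TAC and 7.04 ± 1.95 CPM in WT sham (log2 fold change 1.31, SE 0.29, adjusted p = 0.00747). In cKO the levels were 17.0 ± 3.61 CPM in cKO TAC and 11.8 ± 5.16 CPM in cKO sham (0.52, SE 0.28, adjusted p = 0.183). The difference between these responses of Hmox1 was not called by edgeR. Abcc1, an exporter of glutathione conjugates, was higher after TAC in cKO (0.54, SE 0.10) and in WT (0.40, SE 0.11), and the aldose reductase Akr1b3 was lower in cKO (-0.49, SE 0.11) and missed the threshold in WT (-0.30, SE 0.11, adjusted p = 0.0613). The ferritin gene Fth1 was lower after TAC in cKO (-0.48, SE 0.13, adjusted p = 0.00984) and in WT (-0.47, SE 0.13, adjusted p = 0.0184). Trim16 was higher after TAC in cKO (0.89, SE 0.18, adjusted p = 0.00164) and in WT (0.60, SE 0.18, adjusted p = 0.0309). Aox1 was lower in cKO (-0.64, SE 0.15, adjusted p = 0.00388) and in WT (-0.48, SE 0.15, adjusted p = 0.0334). Between genotypes Ephx1, the microsomal epoxide hydrolase, was higher in cKO under TAC (0.63, SE 0.12, adjusted p = 0.0156) and under sham (0.55, SE 0.12, adjusted p = 0.0240).

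Of 16 further glutathione transferases and peroxidases tested, 5 were lower (31.2%) and 1 was higher (6.25%) in cKO TAC, and 4 were lower (25%) and 1 was higher (6.25%) in WT TAC. For these lists too the shares over all tested genes are 12.4% lower and 14.2% higher in cKO TAC, and 6.14% and 9.7% in WT TAC. Gstk1, the mitochondrial and peroxisomal kappa form, was at 25.2 ± 5.70 CPM in cKO TAC and 59.8 ± 9.98 in cKO sham (log2 fold change -1.25, SE 0.17, adjusted p = 0.000118), and at 45.9 ± 10.0 CPM in WT TAC and 73.6 ± 8.56 in WT sham (-0.68, SE 0.17, adjusted p = 0.0121). It was also lower in cKO TAC than in WT TAC (-0.87, SE 0.17, adjusted p = 0.0225), as was Gstm7 (-0.82, SE 0.19, adjusted p = 0.0381). Gpx7, an endoplasmic reticulum peroxidase, was higher after TAC in cKO (0.90, SE 0.17) and WT (0.58, SE 0.17). Of 24 genes of glutathione breakdown, glutaredoxins and sulfoxide reductases, 7 were lower (29.2%) and none was higher in cKO TAC, with Msrb2, the mitochondrial methionine sulfoxide reductase, at -0.84 (SE 0.15). In WT TAC 2 of these were lower (8.33%) and 1 was higher (4.17%), and Msrb2 missed the threshold (-0.44, SE 0.15, adjusted p = 0.0521). Chac1, which degrades glutathione, was higher in cKO sham than in WT sham (17.7 ± 3.78 against 6.68 ± 1.82 CPM, log2 fold change 1.40, SE 0.29, adjusted p = 0.0240).

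Of 18 genes that supply NADPH, 5 were lower (27.8%) and none was higher in cKO TAC, against 12.4% and 14.2% of all tested genes. In WT TAC 4 were lower (22.2%) and 1 was higher (5.56%), against 6.14% and 9.7%. The mitochondrial ones among them included Idh2, at 1017 ± 191 CPM in cKO TAC and 1702 ± 233 in cKO sham (log2 fold change -0.74, SE 0.16, adjusted p = 0.00236), and the NAD kinase Nadk2 (-0.82, SE 0.15, adjusted p = 0.00111). In WT Idh2 gave -0.51, SE 0.16, adjusted p = 0.0347 and Nadk2 -0.72, SE 0.15, adjusted p = 0.00468. Nnt, the mitochondrial transhydrogenase, was at 1.16 ± 0.455 CPM in cKO TAC and 2.91 ± 0.837 in cKO sham (-1.31, SE 0.29, adjusted p = 0.00309), with 1.47 ± 0.413 CPM in WT TAC and 1.83 ± 0.200 in WT sham (-0.31, SE 0.30, adjusted p = 0.509). Another gene ID with the symbol Nnt held no counts in any library, and whether reads of Nnt were lost between the IDs was not tested. As background, the C57BL/6J substrain carries a deletion within Nnt, and the labels give C57/BL6N. Which allele these mice carried was not tested. Of 18 genes of selenoprotein synthesis and transport, 4 were higher (22.2%) and 1 was lower (5.56%) in cKO TAC and 1 was higher (5.56%) in WT TAC. Of 14 enzymes that produce oxidants, 6 were higher (42.9%) and 1 was lower (7.14%) in cKO TAC, and 4 were higher (28.6%) and 1 was lower (7.14%) in WT TAC. The NADPH oxidase Nox4 was at 9.66 ± 6.67 CPM in cKO TAC and 1.80 ± 0.467 in cKO sham (log2 fold change 2.42, SE 0.47, adjusted p = 0.00156), and at 3.60 ± 1.47 CPM in WT TAC and 0.860 ± 0.638 in WT sham (2.06, SE 0.53, adjusted p = 0.0163). The mitochondrial monoamine oxidase Maob, which releases hydrogen peroxide, was lower in cKO than in WT under TAC (-0.72, SE 0.18, adjusted p = 0.0499) and under sham (-1.04, SE 0.18, adjusted p = 0.00821).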

How the data were processed

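RNA from 16 left ventricles was sequenced in bulk. The authors deposited raw read counts per gene. The submitters' processing notes list, without roles, SAMtools 1.21, HISAT2 2.0.5, FastQC, featureCounts 2.0.6 and fastp 0.22.0, and the build GRCm39. Whether counting used strand, and how it treated multi-mapped reads, is not given in the sources used here. Genes passing filterByExpr were fitted in R 4.3.3 with edgeR 4.0.16 (TMM factors, robust quasi-likelihood F-test, 1 model of the 4 groups over all 16 libraries, 12 residual degrees of freedom). The biological coefficient of variation was 16.5%. There were 6 comparisons, and p-values were adjusted by Benjamini-Hochberg over all tested genes within each. The groups compared share libraries across comparisons. The script was tested on simulated data.

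Exon lengths and overlaps came from GENCODE M21 (GRCm38) and promoters from RefSeq (GRCm38.p6). No coordinates are given for the counted genes because no annotation of the build GRCm39 was used. All members were described, those past the threshold with every library. From each further list the genes named are taken from at most 4 per comparison, the called genes with the smallest p-values, with their values in other comparisons added. The members, lists and alternatives were chosen with earlier results of these data known. The alternatives were other scalings, filters and tools (DESeq2 1.42.0, limma 3.58.1 with voom), the compared groups alone, a replicate block, atrial transcripts as a covariate, mitochondrially encoded genes left out and each library left out. Libraries were treated as unpaired. The deviations of same-numbered libraries correlated between -0.16 and 0.229, and the correlation exceeded 0.1 in 4 of 16 pairs. Differently numbered libraries were not compared in this way, so these values cannot settle whether the numbers mark pairs.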

Additional observations from a re-analysis of the deposited data

Results flagged for a closer look

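In 14 of 152 groups of 4 libraries, 1 library lay far from the other 3 in the level of a member by Dixon's test, where chance alone flags about 5% of groups. In cKO TAC, replicate 1 was the highest for Mgst1 (30.3 CPM), Gsta3 (9.21 CPM) and Gpx1 (14.1 CPM), and replicate 4 for Gsr (30.7 CPM). In cKO sham, replicate 3 was the highest for Prdx6 (201 CPM), Gsta4 (59.7 CPM) and Txnrd2 (42.0 CPM) and the lowest for Gclc (14.9 CPM). In WT TAC, replicate 3 was the highest for Cat (185 CPM). In WT sham, replicate 1 was the highest for Keap1 (79.1 CPM), Txn2 (276 CPM), Pgd (37.5 CPM), Blvrb (17.4 CPM) and Gpx1 (12.6 CPM).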

How the results depend on the processing

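No member changed direction while called under any of the 27 alternatives. With DESeq2 size factors 0 members were higher in cKO TAC relative to cKO sham. With library totals 9 were higher and 7 lower in that comparison, 2 higher and 3 lower in WT TAC against WT sham, and 2 lower in cKO averaged over surgeries. Between cKO TAC and WT TAC the split of all genes went to 116 higher and 118 lower with library totals, against 91 and 180, and averaged over surgeries to 819 and 515, against 640 and 737. With no filter on low counts 0 members were higher in cKO TAC relative to cKO sham, 4 were lower in cKO TAC relative to WT TAC (438 genes in all, against 271), and 0 were higher averaged over surgeries. The DESeq2 Wald test called 8 members lower in WT TAC relative to WT sham, 4 lower and 1 higher in cKO TAC relative to WT TAC (838 genes), 1 higher in cKO sham relative to WT sham (546 genes, against 178), 4 higher averaged over surgeries and 3 genes in the test of the difference between TAC responses. With the compared groups alone 2 members were higher in cKO TAC relative to cKO sham and 1 was lower in cKO TAC relative to WT TAC (147 genes). With atrial transcripts as a covariate 7 members were lower in cKO TAC relative to cKO sham (2499 genes, against 4034), 7 in WT TAC relative to WT sham (2742 genes, against 2409), 0 in cKO TAC relative to WT TAC (25 genes) and 2 averaged over surgeries, and 275 genes were called between cKO sham and WT sham. Without the 2 WT libraries richest in atrial transcripts, 2 members were higher in cKO TAC relative to cKO sham, 0 higher and 3 lower in WT TAC relative to WT sham, and 0 higher averaged over surgeries, with 163 genes called between cKO TAC and WT TAC and 2 in the test of the difference between responses. The cause of these shifts was not tested.

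Leaving out 1 library at a time gave 0 to 2 members higher and 10 to 15 lower in cKO TAC relative to cKO sham, 10 of them without cKO sham replicate 3, with 2740 to 4628 genes called in all. In WT TAC against WT sham it gave 0 to 1 higher and 3 to 8 lower, 8 without cKO TAC replicate 1, with 1262 to 2484 genes. In cKO TAC against WT TAC it gave 0 higher and 0 to 4 lower, with 13 genes (without WT TAC replicate 2) to 909. In cKO sham against WT sham it gave 0 members and 59 genes (without cKO sham replicate 4) to 222. Averaged over surgeries it gave 0 to 2 higher and 2 to 5 lower, with 821 genes (without WT TAC replicate 3) to 1853. The difference between responses gave 0 genes each time.

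Whether the replicate numbers pair the libraries was not settled. With the replicate block, 1 member was higher and 15 were lower in cKO TAC relative to cKO sham (3986 genes), 1 higher and 5 lower in WT TAC relative to WT sham (2336 genes), 0 higher and 3 lower in cKO TAC relative to WT TAC (302 genes), 0 in cKO sham relative to WT sham (235 genes), 2 higher and 3 lower averaged over surgeries (1305 genes), and 0 genes in the difference between responses. At 12946878 counts or more a library, depth limits mainly Slc7a11, Osgin1, Gsta3 and G6pdx, the members with the lowest counts.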
